A study of Mus musculus with 2 samples.

Results

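Myofibre-like barcodes, here called members, were found among the barcodes of 2 single-cell libraries, from intact bone with muscle and from fracture callus. They were selected on their measured content, as those with at least 500 genes and at least 5% of UMIs (counted molecules) in the genes for skeletal actin (*Acta1*), muscle creatine kinase (*Ckm*), fast regulatory light chain (*Mylpf*), fast troponin T (*Tnnt3*) and fast troponin C (*Tnnc2*), with no limit on mitochondrial RNA. There were 73 of 1872 barcodes in the intact library (3.90%, 95% Clopper-Pearson interval 3.07 to 4.88) and 221 of 3987 in the callus library (5.54%, 4.85 to 6.30). Of the barcodes with at least 500 genes they made up 6.01% (4.74 to 7.50) and 6.57% (5.75 to 7.46), intervals that overlap. They held 280626 of 12112002 UMIs and 608621 of 36714322 UMIs.

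Skeletal myofibres are long multinucleate cells in which calcium lets myosin pull on actin filaments, and they are called fast or slow after the isoforms of the contractile proteins they hold. Fast fibres use *Myh4*, *Myh1* or *Myh2* as the myosin heavy chain, fast troponins and, in the most glycolytic of them, little myoglobin, whereas slow fibres use *Myh7*, slow troponins and much myoglobin. A whole myofibre is far larger than a droplet, so a droplet can hold only a fragment of one.

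The RNA was read from *Clec3b.creERT2; Ai14.R26.tdTomato* mice, in which tamoxifen switches on the red fluorescent protein tdTomato in cells that express *Clec3b* and in their progeny. Tamoxifen was given 2 weeks before a stabilized fracture of the right femur, and 3 littermates described as male were pooled at 3 weeks after surgery. The intact library came from the femoral diaphyses of the unfractured limb together with their muscle, and the callus library from the fractured limb of the same mice. Both were digested with collagenase and sorted for tdTomato before droplet capture, a single library was made of each, and they therefore differ by limb, fracture and preparation at once. *Clec3b* itself, the gene that drives the recombinase, had 1 UMI in the intact myofibre-like barcodes and none in the callus ones, against 420 and 71.5 UMIs per 1000000 (CPM) in the other barcodes. All intervals cover counting error only, and with 1 library per condition no test between intact and callus could be made. Although the mice are described as male, *Xist*, which is transcribed from the inactive X chromosome of females, stood at 584 CPM in the other intact and 953 CPM in the other callus barcodes, and 4 Y-linked genes together had 1 UMI in the intact and 0 UMIs in the callus library. The libraries shared 1 barcode sequence.

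Promoters were available for 4 of the 5 genes that define the barcodes, and are shown because these genes define the barcodes. The windows are from RefSeq on GRCm38.p6, run from 250 bases before the annotated start to 50 bases after it, and are written 5′ to 3′ on the gene's strand. Capitals mark the E-box (CANNTG, the core that myogenic basic helix-loop-helix factors bind), the TATA motif TATAAA and the CArG box bound by serum response factor, searched on both strands. No 2 kinds of match overlapped, and the MEF2 box had no match in these 4 windows. *Acta1* lies at chr8:123894726-123895025 (minus strand), *Ckm* at chr7:19410844-19411143 (plus), *Mylpf* at chr7:127211358-127211657 (plus) and *Tnnc2* at chr2:164779685-164779984 (minus).
Acta1: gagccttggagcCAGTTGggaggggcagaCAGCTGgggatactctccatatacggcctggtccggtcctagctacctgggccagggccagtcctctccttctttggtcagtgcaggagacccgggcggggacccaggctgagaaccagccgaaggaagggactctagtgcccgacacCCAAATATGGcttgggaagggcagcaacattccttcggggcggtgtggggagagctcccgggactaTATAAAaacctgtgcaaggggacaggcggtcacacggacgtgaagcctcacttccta
Ckm: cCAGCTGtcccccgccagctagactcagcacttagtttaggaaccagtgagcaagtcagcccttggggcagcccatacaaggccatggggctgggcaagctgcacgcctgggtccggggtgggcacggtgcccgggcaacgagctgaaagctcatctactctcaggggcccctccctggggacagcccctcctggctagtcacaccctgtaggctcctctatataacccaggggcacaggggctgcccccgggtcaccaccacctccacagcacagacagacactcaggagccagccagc
Mylpf: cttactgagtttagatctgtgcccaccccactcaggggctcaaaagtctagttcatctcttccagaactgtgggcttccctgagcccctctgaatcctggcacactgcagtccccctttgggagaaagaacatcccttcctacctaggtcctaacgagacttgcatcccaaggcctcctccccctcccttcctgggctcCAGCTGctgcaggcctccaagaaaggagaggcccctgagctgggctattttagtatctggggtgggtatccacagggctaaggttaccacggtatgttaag
Tnnc2: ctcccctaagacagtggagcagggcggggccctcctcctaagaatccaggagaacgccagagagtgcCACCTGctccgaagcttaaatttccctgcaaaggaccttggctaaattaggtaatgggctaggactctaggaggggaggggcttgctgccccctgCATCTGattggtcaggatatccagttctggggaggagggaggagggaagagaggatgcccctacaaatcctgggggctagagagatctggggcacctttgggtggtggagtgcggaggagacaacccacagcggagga

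*Acta1* held 2 E-boxes, 1 TATA motif and 1 CArG box, *Tnnc2* held 2 E-boxes, and *Ckm* and *Mylpf* 1 each. Of 32544 distinct promoter windows of this length, 72.3% held an E-box, 13.6% the TATA motif, 1.64% a CArG box and 3.16% a MEF2 box. The CArG box of *Acta1* is thus the least common of the matches shown, and an E-box is found in most windows. A match is a description of the letters and does not show binding.

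In members the 5 defining genes took 18.2% of UMIs in the intact and 18.3% in the callus library, against 0.0215% and 0.0386% in the remaining barcodes with at least 500 genes. The intact members spanned 6.61% to 28.1% (median 17.7%), and the callus members 5.32% to 29.9% (median 18.8%). Few barcodes lay near the limit. In the intact library 1 barcode lay between 0.5 and 1%, 1 between 1 and 2% and 1 between 2 and 5%, while 4 lay between 5 and 10%. In the callus library these counts were 11, 18, 13 and 19. Nearest inside the limit were an intact barcode at 6.61% and callus barcodes at 5.32, 5.60 and 5.69%. Nearest outside were intact barcodes at 4.10, 1.53 and 0.734% and a callus barcode at 4.56%. *Malat1*, a nuclear RNA, stood at 37577 CPM in the intact barcode just outside at 4.10% and at 391 CPM in the one just inside at 6.61%. In the callus library the sides overlapped, with 14440 CPM in the barcode just inside at 5.60% and 3685 CPM in one just outside at 3.95%.

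**Figure D1:**
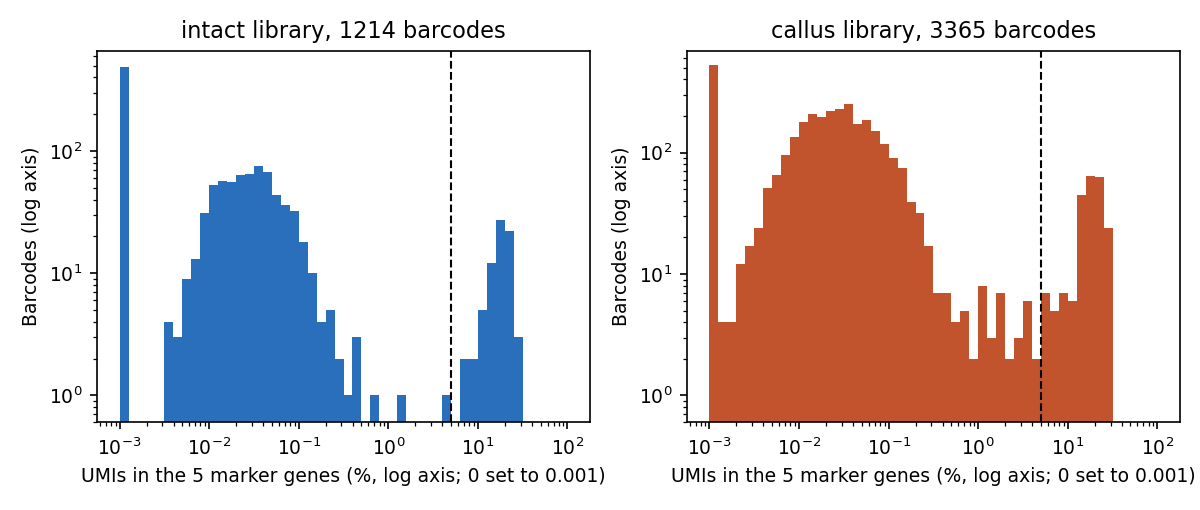
Number of barcodes (vertical log axis) by share of UMIs in the 5 defining genes (horizontal log axis, percent) among barcodes with at least 500 genes, for the intact (left, 1214 barcodes) and callus library (right, 3365 barcodes), with the limit of 5% as a dashed line. Members centre around 18% and most other barcodes lie below 0.1%. Intact barcodes are sparse in between (1 from 2 to 5%), whereas a thin run of callus barcodes reaches the limit (13 from 2 to 5%).

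Members were shallower than the other barcodes. Their median depth was 2320 UMIs in the intact library (1057 to 18926) and 1856 UMIs in the callus library (985 to 21630), against 5115 and 7129 UMIs in the others. They showed a median of 776 and 696 genes. After each barcode was thinned to 1000 UMIs, with 1 callus member left out as too shallow, members still showed fewer genes, 446 in the intact and 447 in the callus library, against 604 and 601 in the other barcodes (14 and 24 of which were left out). The 20 most abundant genes took 36.4% and 35.6% of the members' UMIs.

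Thin filament genes made up 20.6% of the members' UMIs in the intact and 19.6% in the callus library. *Acta1*, the actin of the thin filament, was the most abundant gene at 52137 and 50453 CPM. Troponin binds calcium and moves tropomyosin off actin, and its fast subunits *Tnnc2* (37655 and 36492 CPM), *Tnnt3* (32898 and 30766 CPM) and *Tnni2* (24164 and 24243 CPM) were all among the highest. The tropomyosins *Tpm1* and *Tpm2* stood at 34444 and 14774 CPM in the intact and at 37399 and 11593 CPM in the callus members. Counts are of transcript 3′ ends, so a gene's CPM is not divided by its length.

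Thick filament genes took 6.82% and 7.64% of UMIs, mostly in the light chains *Mylpf* (38817 and 45314 CPM) and *Myl1* (19713 and 24109 CPM). The fast heavy chain *Myh4* stood at 1693 and 2484 CPM. Its UMIs were found in 61.6% of intact and 70.6% of callus members. *Mybpc2*, the fast myosin-binding protein C, was at 631 CPM in the intact members and at 1275 CPM in the callus members. At the Z-disc, *Tcap*, which caps titin, was the most abundant gene at 6286 and 5445 CPM, and *Actn3*, the fast actinin, was at 2245 and 2759 CPM. The intermediate filament gene *Des* stood at 2163 and 2261 CPM.

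Genes outside the rule that mark myofibres were thus abundant in both libraries. *Atp2a1*, the fast calcium pump of the sarcoplasmic reticulum, was at 3090 and 3122 CPM and present in 94.5% and 96.8% of members. Parvalbumin (*Pvalb*), which buffers calcium in fast fibres, was at 2045 CPM (1882 to 2220, 95% Poisson interval) in the intact and at 3444 CPM (3298 to 3595) in the callus members. The glycolysis list took 5.24% and 4.20% of UMIs, led by *Aldoa* (19054 and 14314 CPM), *Gapdh* (11328 and 9857 CPM) and the muscle enolase *Eno3* (6753 and 4888 CPM). *Slc25a4*, the adenine nucleotide carrier, stood at 10665 and 6879 CPM.

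Transcripts made inside mitochondria were scarce in the members, while those of nuclear genes for the same respiratory complexes were abundant. The 13 mitochondrially encoded genes took 0.325% of UMIs in intact (0.305 to 0.347) and 0.428% in callus members (0.411 to 0.444), against 1.32% and 1.99% in the other barcodes. The median member was at 0.0755% in the intact and at 0.126% in the callus library. There were 40 of 73 intact and 96 of 221 callus members under 0.1%, including 17 and 41 with no such UMI, against 4.03% and 1.59% of the other barcodes under 0.1%. Members over 10% numbered 0 and 2. The 43 nuclear genes of oxidative phosphorylation took 7.83% and 6.62% of the members' UMIs, against 0.967% and 1.22% in the others. *Atp5e* was the most abundant of them, and *Cox7c*, *Cox6a2* and *Cox6c* were abundant too. A limit of 10% would thus take away 2 of the 294 barcodes.

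RNA kept in the nucleus was close to absent. *Malat1* had 0 UMIs in 67 of 73 intact and 192 of 221 callus members, whereas 98.2% and 98.0% of the other barcodes carried it, at 21677 and 11681 CPM. The intact members held 6 *Malat1* UMIs in all (21.4 CPM), with at most 1 in a barcode. The callus members held 367 UMIs (603 CPM), of which 337 lay in 4 barcodes. The highest of these had 210 *Malat1* UMIs, 10 *Xist* UMIs and 2.74% of its UMIs in B lineage genes, another had 97 with 21.8% in erythroid genes, and the next had 16 with 24.7% in neutrophil genes. The last of the 4 had 14, with only 0.0831% of its UMIs in genes of other cell types. *Neat1* stood at 10.7 and 21.4 CPM in members and at 384 and 387 CPM in the others. Immediate early genes, such as *Jun*, took 0.0584% and 0.0449% against 1.76% and 0.904% in the others. *Gm42418*, which overlaps a ribosomal RNA repeat, did not follow this pattern, with 8378 and 5803 CPM in members and 9676 and 5554 CPM in the others.

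**Figure D2:**
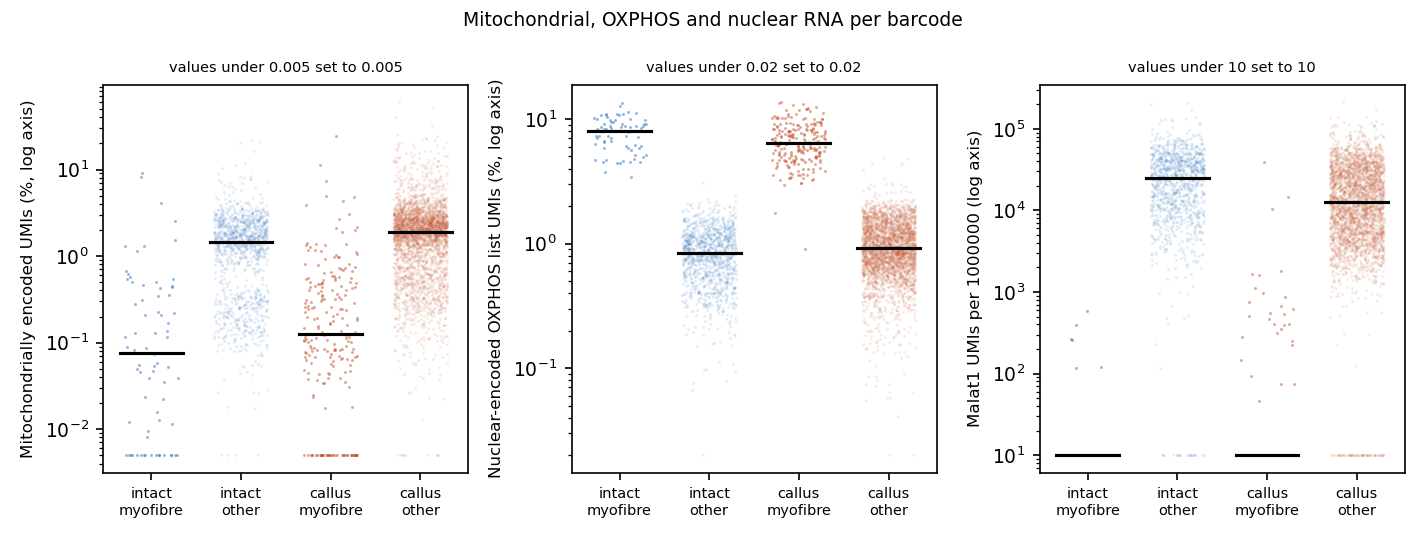
Share of UMIs from the mitochondrial genome (left), share from the list of nuclear oxidative phosphorylation genes (middle) and *Malat1* CPM (right) in each barcode with at least 500 genes, all on log axes, for 73 intact and 221 callus myofibre-like barcodes and the other barcodes; each point is a barcode and each line a median. Members lie lower for mitochondrial RNA and *Malat1* and higher for the nuclear genes, and most members have no *Malat1* UMI.

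For 2 paralogue pairs of translation the muscle form was the more abundant in members as a whole, and the general form in the other barcodes. The translation elongation factor *Eef1a2*, the form of adult muscle and neurons, stood at 759 and 654 CPM in members, and the widely used *Eef1a1* at 60.6 and 572 CPM. In the other barcodes *Eef1a2* stood at 1.38 and 1.30 CPM and *Eef1a1* at 2544 and 3025 CPM. The ribosomal protein gene *Rpl3l*, which striated muscle uses in place of *Rpl3*, was at 738 and 776 CPM in members, with *Rpl3* at 24.9 and 191 CPM. In the others *Rpl3l* was at 4.83 and 4.10 CPM and *Rpl3* at 1468 and 1987 CPM. For the elongation factors the order was the other way in the 6 callus slow barcodes, with *Eef1a1* at 3744 and *Eef1a2* at 1108 CPM (2286 and 949 CPM with barcodes weighted equally), and in the 25 callus fast barcodes with at least 3 *Sln* UMIs described further on, with 1567 and 496 CPM (1545 and 647 CPM weighted equally). For *Rpl3* and *Rpl3l* no order can be given there, since the slow barcodes held 16 and 6 UMIs and the 25 barcodes were at 584 and 448 CPM in the sum but at 433 and 589 CPM weighted equally. Both pairs were chosen after their values were seen. Cytoplasmic actin (*Actb*) was at 153 and 145 CPM in members against 5918 and 4508 CPM in the others.

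Other cell types left little RNA in the members. The fibroblast list took 0.00570% of UMIs in intact and 0.00526% in callus members against 1.51% and 0.875% in the others. In the intact members *Pdgfra*, *Dcn* and *Col1a1* were at 0, and in the callus members *Pdgfra*, *Lum* and *Clec3b* were at 0. The neutrophil list took 0.0378% and 0.104% (*S100a8* the highest), against 13.4% and 10.8% in the others. Erythroid genes took 0.184% and 0.374%, led by *Hbb-bs*, but 2043 of the 2276 callus UMIs lay in 1 barcode. Without the highest barcode of each library they took 0.184% and 0.0389%, and the medians over members were 0.253% and 0.0358%, so that the intact members were the higher. The other barcodes took 2.38% and 1.94%, with medians of 0.139% and 0.0240%, so the intact library had the higher median outside the members too. B lineage genes took 0.00356% and 0.0288%, or 0.00332% and 0.00464% without the highest barcode of each library, which held 147 of 175 UMIs in callus. The macrophage, T and NK cell, endothelial, mural, osteoblast, osteoclast and Schwann cell lists each took at most 0.00739% in either library. Of the 73 intact and 221 callus members, 3 and 3 had at least 1% of UMIs in these lists, and the highest was at 1.38% in the intact and 26.0% in the callus library. The cardiac genes *Myh6*, *Nppa*, *Nppb* and *Tnni3* were at 0 in both, while *Actc1*, which is also made by immature skeletal muscle, was at 235 and 477 CPM.

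The satellite cell list took 0.222% and 0.232% of UMIs, of which 97.6% and 97.3% were *Des*, also a gene of mature fibres. *Pax7*, which defines these stem cells, had 1 and 0 UMIs, and *Myf5* had none in either library. Embryonic myosin (*Myh3*) had none in either library, and neonatal myosin (*Myh8*) had 1 UMI in each. The list of developmental and regenerating muscle that holds both took 0.0852% and 0.198% of UMIs (log2 1.22, counting interval 1.02 to 1.42), with *Mef2c* as its most abundant gene. Of its 3 genes with enough UMIs to be counted, 2 were at least 2-fold higher in callus members, beside 3.81% of all genes. The genes of the neuromuscular junction took 0.00535% and 0.00723%, and *Chrne* and *Chrnd* were at 0 in both.

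The members fell into a fast and a slow class by troponin I, the subunit that holds back contraction. *Tnni2*, the fast form, led in 66 of 73 intact and 215 of 221 callus members. *Tnni1*, the slow form, led in 7 of 73 (9.59%, 3.94 to 18.8) and 6 of 221 (2.71%, 1.00 to 5.82), shares whose intervals overlap. The classes were nearly exclusive. No intact and 6 callus barcodes led by *Tnni2* carried any *Tnni1*, and the largest share of the lesser form in any barcode was 7.41% in the intact and 4.84% in the callus library.

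**Figure D3:**
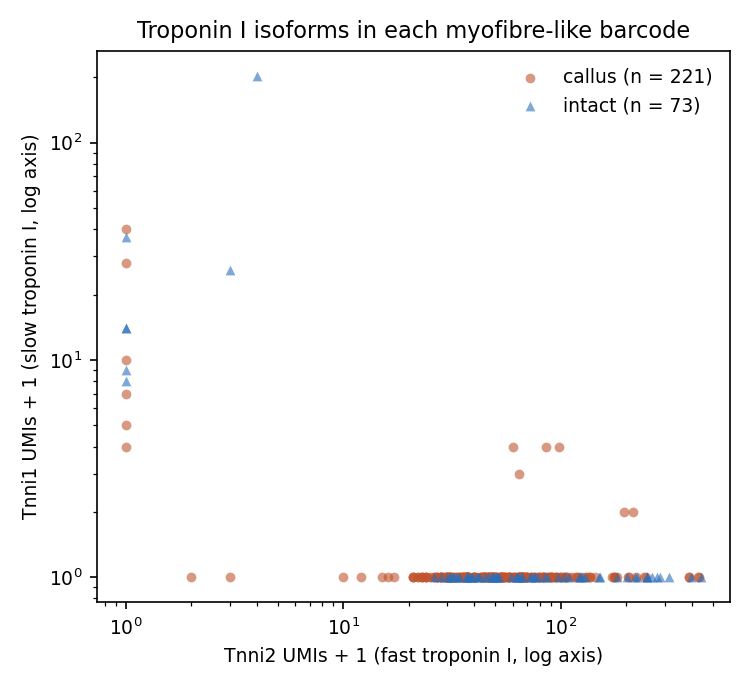
UMIs of *Tnni2* (horizontal) and *Tnni1* (vertical), each plus 1 on a log axis, in each of 73 intact (triangles) and 221 callus (circles) myofibre-like barcodes. Points lie along the axes, with 7 intact and 6 callus barcodes led by *Tnni1*.

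The slow class, set by *Tnni1*, held slow isoforms of both filaments. The 7 intact slow barcodes had 9393 CPM of *Tnni1*, 29786 CPM of the slow light chain *Myl2*, 23792 CPM of slow troponin C (*Tnnc1*) and 21845 CPM of slow tropomyosin (*Tpm3*), against 0, 0, 4.03 and 4.03 CPM in the 66 fast barcodes. In the 6 callus slow barcodes these stood at 3362, 21090, 13334 and 16315 CPM, against 22.3, 89.3, 17.2 and 44.6 CPM in the 215 fast barcodes. A single intact barcode of 18926 UMIs held 202 of the 304 *Tnni1* UMIs of its class, and a single callus barcode of 14671 UMIs held 39 of 88. With barcodes weighted equally *Tnni1* was at 7734 and 3985 CPM and *Myl2* at 29687 and 20122 CPM in the intact and callus slow barcodes. *Myh7* had 48 UMIs in 6 of the 7 intact and 9 UMIs in 3 of the 6 callus slow barcodes. No slow barcode of either library carried *Myh4* or *Pvalb*. *Atp2a1* was lower in slow than in fast barcodes, at 433 against 3436 CPM in the intact and 306 against 3248 CPM in the callus library.

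Because 3 of the 5 defining genes are fast isoforms, the slow barcodes sat near the limit, at 6.61% to 12.2% in the intact and 5.32% to 8.99% in the callus library, while the fast ones had medians of 18.1% and 18.9%. The rule thus counts slow fibre fragments less readily than fast ones. *Acta1*, which both classes use, was at 91336 and 63692 CPM in the slow and at 47027 and 49859 CPM in the fast barcodes of the intact and callus libraries. *Tnnt3* was at 61.8 and 229 CPM in the slow barcodes.

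The heavy chain that led a barcode varied. Of the 25 intact members with at least 10 UMIs of *Myh4*, *Myh1*, *Myh2* and *Myh7*, *Myh4* led in 17 (68.0%, 46.5 to 85.1), *Myh1* in 5, *Myh7* in 2 and *Myh2* in 1. Of 62 such callus members *Myh4* led in 56 (90.3%, 80.1 to 96.4), *Myh1* in 5 and *Myh2* in 1. In each of these barcodes 1 gene held over 50% of the UMIs of the 4, which was the condition for leading, and UMIs of the others could be present. The oxygen store myoglobin (*Mb*) followed the heavy chain, at 255 and 548 CPM in barcodes led by *Myh4* and at 3193 and 5962 CPM in those led by *Myh1*. The fast heavy chain genes are close copies that lie side by side on chromosome 11, and how reads shared between them were split was not tested.

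Intact and callus members were alike for most genes. Of 1601 genes with at least 50 UMIs, 61 (3.81%) were at least 2-fold higher in callus and 35 (2.19%) at least 2-fold higher in intact members, with no test behind either count. The callus count was 218 of 1916 genes at a limit of 2% marker UMIs and 23 of 694 at 20%, so the shares given as background below hold for the 5% limit only. The median log2 ratio of callus over intact was 0.00, and 79.3% of genes were within 1.5-fold. The 5 defining genes, over which the rule was set, lay between -0.10 and 0.22 on the log2 scale. Fewer fragments of a kind and less RNA in each cannot be told apart in these sums.

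**Figure D4:**
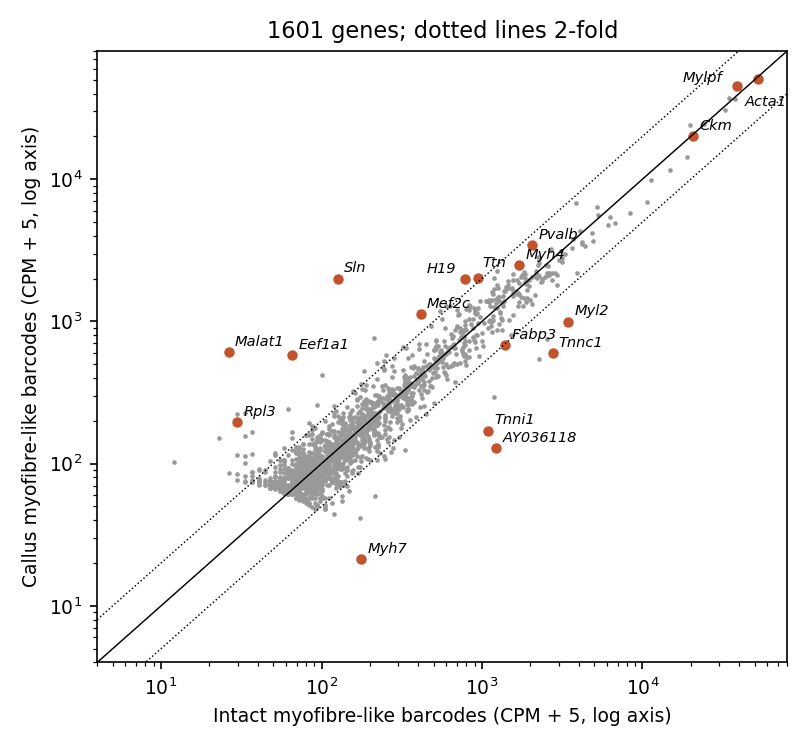
CPM plus 5 in intact (horizontal) and callus (vertical) myofibre-like barcodes, both on log axes, for the 1601 genes with at least 50 UMIs; dotted lines mark 2-fold differences and named genes are in colour. *Sln*, *Malat1* and *Eef1a1* lie well above the diagonal, and *Tnni1*, *Myh7* and *AY036118* well below.

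Among the genes named by rule *Malat1* had the largest log2 ratio, 4.70, but it was 1.17 without the members of at least 10 *Malat1* UMIs. *Sln* had the next largest, and was at 4.08 without those members. Sarcolipin, its product, is a small membrane protein that slows the sarcoplasmic reticulum calcium pump. It had 34 UMIs in the intact members (121 CPM, 83.9 to 169) and 1212 UMIs in the callus members (1991 CPM, 1881 to 2107), a log2 ratio of 4.02 (3.55 to 4.58), and 2.89 with barcodes weighted equally. In the other barcodes it was at 0.414 and 0.767 CPM. It was found in 11.0% of intact and 21.7% of callus members.

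Further genes at least 2-fold higher in callus members were *Mef2c* (410 and 1124 CPM, log2 1.45), a transcription factor of muscle genes, and the imprinted RNA *H19* (773 and 1970 CPM, log2 1.35). *Ttn*, the giant spring of the sarcomere, was at 937 and 2021 CPM (log2 1.11, but 0.97 with barcodes weighted equally and 0.96 at 2% marker UMIs), and *Xirp2*, an actin-binding protein, at 595 and 1282 CPM (log2 1.10). These were spread widely, as *Mef2c* was found in 63.0% and 77.8% of members, *H19* in 71.2% and 84.2%, *Ttn* in 84.9% and 87.8%, and *Xirp2* in 64.4% and 83.7%. Per barcode, *Mef2c* ran from 0 to 2527 CPM (median 354) in intact and from 0 to 5208 CPM (median 837) in callus members, and *H19* from 0 to 4261 CPM (median 551) and from 0 to 19359 CPM (median 1452). The values of single barcodes thus overlapped widely between the libraries. The other barcodes gave log2 ratios of 0.07 for *Mef2c*, -1.36 for *H19*, -0.01 for *Ttn* and 1.90 for *Xirp2*. *Mustn1* (28.5 and 220 CPM, log2 2.87) and *Ctxn3* (28.5 and 151 CPM, log2 2.33) were also higher in callus members.

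*Eef1a1* (log2 3.20, or 2.29 with barcodes weighted equally and 1.78 at 10% marker UMIs) and *Rpl3* (log2 2.84) were higher in callus members, while their muscle paralogues had log2 ratios of -0.22 (*Eef1a2*) and 0.07 (*Rpl3l*). Of the 348 callus UMIs of *Eef1a1*, 98 lay in the 6 slow barcodes and 196 in the 25 fast barcodes with at least 3 *Sln* UMIs. The neutrophil granule genes *Camp* (log2 3.04) and *Ngp* (log2 2.27) were at 219 and 163 CPM in callus members, against 12604 and 9771 CPM in the other callus barcodes. Both are made by cells of another type, and the part of free RNA in their ratios was not tested. Of the neutrophil list as a whole, 3 of 4 genes counted were at least 2-fold higher in callus members, beside 3.81% of all genes. A single callus barcode held 274 of the list's 635 UMIs. Without the highest barcode of each library the list took 0.0260% and 0.0594% of UMIs. *Camp* then stood at 11.0 and 65.8 CPM and *Ngp* at 14.7 and 39.5 CPM, both with under 50 UMIs and so not counted. The 2 genes still counted, *S100a8* (log2 1.14) and *S100a9* (log2 1.10), were at least 2-fold higher in callus. The share over all genes was not taken for this reduced set of barcodes. *Mpo* and *Elane* were at 0 in the intact members.

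Higher in intact members were slow fibre genes, namely *Tnnc1* (log2 -2.22), *Myl3* (-2.07) and *Tpm3* (-1.76). Of the 13 slow fibre genes counted, 7 were at least 2-fold higher in intact members, beside 2.19% of all genes, and 0 in callus members, beside 3.81%. Their median log2 ratio was -1.04 beside 0.00 over all genes. Summed, the list was at 18509 CPM in the intact and 7926 CPM in the callus members, a log2 ratio of -1.22 (-1.28 to -1.17). With barcodes weighted equally it was -1.24. Among members led by *Tnni2* alone the log2 ratio was 0.42. The list includes *Mb*, which was found in 57.6% of intact and 57.7% of callus barcodes led by *Tnni2*. The list was at 137220 CPM in the intact and 94028 CPM in the callus slow barcodes, and their number and their content cannot be told apart in the sum. The fast fibre list had a log2 ratio of 0.06. Of its 18 genes, 1, *Mybpc2*, was at least 2-fold higher in callus (log2 1.01), beside 3.81% of all genes, so the count is near that share. *Mybpc2* fell under 2-fold at 2% marker UMIs (0.84), at 20% (0.85), with at least 200 genes (0.88) or 1000 genes (0.75), and among members led by *Tnni2* (0.90).

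*AY036118* had a log2 ratio of -3.31 in members, and the other barcodes gave -3.23, so that the libraries differed for it outside the members too. *Lars2* behaved alike, at -1.02 and -1.67. *Fabp3*, a fatty acid carrier of oxidative muscle, was at 1390 and 677 CPM (log2 -1.04), and *Idh2*, a mitochondrial enzyme, at 328 and 120 CPM (log2 -1.45), where the other barcodes gave 1.29 and 0.80. *Fabp3* lay between -1.24 and -0.21 over the alternatives. *Cryab*, a small heat shock protein, was at 3913 and 2170 CPM (log2 -0.85), but its direction turned to 0.26 among members led by *Tnni2* and to 0.50 at 20% marker UMIs. It stood at 21753 CPM in intact slow and 1587 CPM in intact fast barcodes.

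The 13 mitochondrially encoded genes had a median log2 ratio of callus over intact of 0.35 over 11 genes counted. Of these, *mt-Co3* was at least 2-fold higher in callus (log2 1.21, but 0.96 with barcodes weighted equally), beside 3.81% of all genes. Only *mt-Atp8* was at least 2-fold higher in intact members (log2 -2.19), beside 2.19% of all genes. The log2 ratio of the sum of the 13 genes was 0.39. It was 0.03 without the 2 callus members over 10%, -0.02 at a limit of 200 genes and -0.67 at 20% marker UMIs, so that its direction depended on the limits. Of 43 nuclear oxidative phosphorylation genes none was 2-fold apart, beside 3.81% of all genes higher in callus and 2.19% higher in intact members. Among the 43, 8 had a ratio above 1, and the median log2 ratio was -0.28. The glycolysis list had a median of -0.29 over 18 genes counted. Of these 1, *Hk2*, was at least 2-fold higher in intact members, beside 2.19% of all genes, so the count is near that share. For the calcium handling list the median over 18 genes was 0.14. Only *Sln* was at least 2-fold higher in callus, beside 3.81% of all genes, a count again near that share.

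Of 6 atrophy and denervation genes counted, 2 were at least 2-fold higher in callus members, beside 3.81% of all genes, and none in intact members. These were *Sln* and the metallothionein *Mt1*, at 42.8 and 98.6 CPM (log2 1.16, 0.30 to 2.24, but 0.80 with barcodes weighted equally). The list's summed log2 ratio was 1.99 (1.78 to 2.22). The ubiquitin ligase *Trim63* was at 107 and 136 CPM, and *Fbxo32*, another, at 64.1 and 64.1 CPM. *Sln* made up 72.7% of the callus UMIs of that list, and without it the list was at 567 CPM in intact and 749 CPM in callus members. *Ankrd1*, a stress-responsive gene, had 0 UMIs in the intact and 44 UMIs in the callus members (72.3 CPM), in 6.33% of them, at least 6.76-fold higher against a floor of 3 UMIs in the intact sum.

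*Sln* was concentrated in a subset of barcodes. Of the barcodes led by *Tnni2*, it was found in 1 of 66 intact (8 UMIs) and 44 of 215 callus barcodes (20.5%, 15.3 to 26.5). At least 3 UMIs were found in 25 of the 215 (11.6%, 7.67 to 16.7), with up to 245 in a barcode, and the 5 highest held 618 of 1047 UMIs. All 7 intact slow barcodes carried *Sln*, with 1 to 8 UMIs, and 4 of 6 callus slow barcodes did, with up to 119. In slow barcodes it was at 803 CPM in the intact and 6304 CPM in the callus library, or at 1564 and 4514 CPM with barcodes weighted equally. A single barcode of 14671 UMIs held 119 of the 165 callus UMIs, and 1 of 18926 UMIs held 2 of the 26 intact ones.

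The 25 callus fast barcodes with at least 3 *Sln* UMIs were set beside the 171 without any. They were chosen on *Sln* after its values were seen, and the genes below are a description. *Csrp3*, a stretch-related Z-disc gene, was at 1031 against 9.79 CPM, but in 7 barcodes. The slow fibre list summed to 8610 against 2597 CPM, with *Tnnt1* at 791 against 14.7 CPM (in 9 of the 25) and *Myl2* at 400 against 2.45 CPM (in 3), and all 13 *Tnni1* UMIs of callus fast barcodes lay in this subset. *Myh4* was at 1647 against 2925 CPM, and *Myh1* at 1367 against 531 CPM (695 against 547 CPM with barcodes weighted equally, and found in 7 of the 25). *Mb* was at 4053 against 1388 CPM, and as it is on the slow fibre list these values are part of the sums given for that list.

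*Cdkn1a*, a cell cycle inhibitor, was at 871 against 103 CPM and found in 17 of the 25. *Myog*, which drives muscle differentiation, was at 160 against 2.45 CPM, from 20 UMIs in 5 barcodes. *Eef1a1* was at 1567 against 73.4 CPM, in 20 of the 25, and *Rpl3* at 584 against 51.4 CPM. *Lgals1* (1535 against 286 CPM) and *Hspb8* (712 against 122 CPM) were higher as well, and *Atp2a1* (1591 against 3733 CPM) lower. The subset was deeper, with a median of 3496 against 1786 UMIs, and had a lower marker share, 13.4% against 19.2%, and the part of either in these values was not tested. Barcodes without *Sln* in the intact library had *Eef1a1* at 12.6 CPM and *Cdkn1a* at 75.8 CPM.

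**Figure D5:**
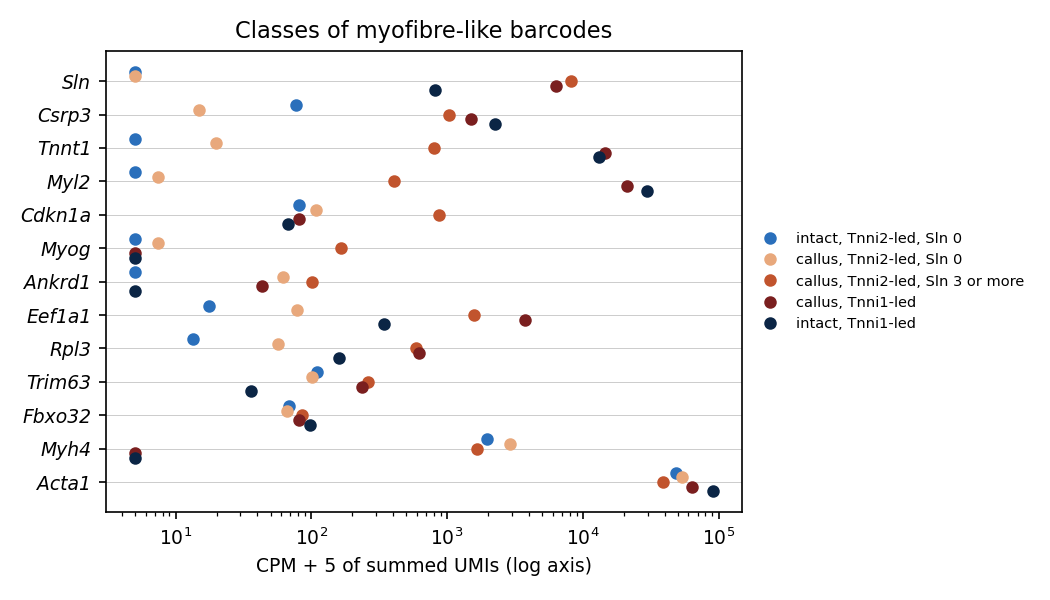
CPM plus 5 (log axis) of 13 genes in the summed UMIs of intact fast barcodes without *Sln*, callus fast barcodes without *Sln*, callus fast barcodes with at least 3 *Sln* UMIs, and the slow barcodes of each library. *Csrp3*, *Tnnt1*, *Cdkn1a*, *Myog*, *Eef1a1* and *Rpl3* are higher in the callus barcodes with *Sln* than in those without, and *Myh4* is at 0 in both slow classes.

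Muscle RNA was also present at low level outside the members. The 5 defining genes were at 215 CPM (205 to 226) in the other intact and at 386 CPM (380 to 393) in the other callus barcodes, and 57.5% and 83.4% of these barcodes carried at least 1 such UMI. Of all UMIs of the 5 genes in each library, 77.7% and 68.9% lay in members. Some of these genes kept nearly the proportions they had in members. *Ckm* was at 0.397 of *Acta1* in intact members and 0.408 in the other intact barcodes, and at 0.398 and 0.447 in the callus library. *Tnnc2* was at 0.722 and 0.781 of *Acta1* in the intact and at 0.723 and 0.736 in the callus library. Others were higher in proportion outside the members, as *Mylpf* went from 0.745 to 0.908 and *Tnnt3* from 0.631 to 0.784 of *Acta1* in the intact library. A few were lower in proportion there in the intact or the callus library, but not in both. *Tcap* went from 0.121 to 0.0896 in the intact but from 0.108 to 0.115 in the callus library. *Tnni1*, with 4 UMIs outside the intact members, went from 0.0208 to 0.00995 in the intact but from 0.00329 to 0.00347 in the callus library. *Myl1* went from 0.478 to 0.441 in the callus but from 0.378 to 0.453 in the intact library. Among further genes in the intact library, *Tpm1* went from 0.661 to 1.69 and *Ttn* from 0.0180 to 0.174. These 2 genes were 367-fold and 97.0-fold higher in intact members than in the other intact barcodes, against 940-fold for *Acta1*. Whether their RNA outside the members came from muscle was not tested. Grouped by leading list, neutrophil-like barcodes had 170 and 265 CPM of the 5 genes, B lineage-like barcodes 527 and 573 CPM, fibroblast-like barcodes 152 and 443 CPM, macrophage-like barcodes 82.3 and 782 CPM, and endothelial-like barcodes 425 and 620 CPM. These are sums, and the order by median differed in the callus library. There the median barcode was at 0.0201% of UMIs if macrophage-like, 0.0423% if B lineage-like and 0.0453% if endothelial-like.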

How the data were processed

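Per the labels, tdTomato-sorted cells of intact diaphyses with muscle and of fracture calluses were captured with the 10x 3′ kit. The authors deposited filtered UMI counts per gene and barcode, made with Cell Ranger (version 6.0.0 in the file headers) on mm10 (the submitters' processing notes), with 12112002 and 36714322 UMIs in all. The barcodes and gene lists were chosen with earlier results of these data known. UMIs of the barcodes were summed per library with numpy (2.4.6) and scipy (1.17.1), and CPM are UMIs per 1000000 of that sum. Ratios had 0.5 UMI added to each sum and were counted for genes with at least 50 UMIs. Intervals are exact at 95% (Poisson for sums, Clopper-Pearson for shares). The ratio step was tested on simulated data. Genes named are the 5 defining genes, the 20 highest others, the 8 highest and 8 lowest ratios (at least 100 UMIs, in 10% of barcodes, 1.5-fold with equal weights), list examples, and genes said to be chosen after seeing values. Doublets were called with Scrublet in scanpy (1.11.5) as an alternative only. Of 32285 gene identifiers, 99.8% were in the GRCm38 annotation used for positions. 1 gene that the rule names is not reported here.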

Additional observations from a re-analysis of the deposited data

Results flagged for a closer look

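Barcodes with fewer than 500 genes, which the members leave out, held many that passed the limit on the 5 defining genes. There were 83 of 658 such barcodes in the intact library (12.6%) and 238 of 622 in the callus library (38.3%). Their median share of the 5 genes was 18.9% and 18.7%, and their median depth 754 and 788 UMIs. *Tnni2* led in 80 and 235 of them and *Tnni1* in 3 and 1. *Malat1* was at 151 and 172 CPM in their summed UMIs, and their median mitochondrial share was 0.279% and 0.331%.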

How the results depend on the processing

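No paired analysis was possible because the libraries share a single replicate number, with 1 library per condition and no test. Scrublet called 2 intact and 4 callus doublets of all barcodes, under 0.5%, so it is taken not to have worked, and 0 were members. Members numbered 24 and 86 (intact and callus) at 20% marker UMIs, 156 and 459 with at least 200 genes, and 24 and 44 with at least 1000 genes. The mitochondrial share (percent, intact then callus) was 0.360 and 0.720 at 2% marker UMIs, 0.233 and 0.325 at 10%, 0.264 and 0.166 at 20%, 0.613 and 0.605 at 200 genes, 0.128 and 0.236 at 1000 genes, 0.533 and 0.586 with equal weights, and 0.398 and 0.524 with the 5 genes out of the total. It was 0.243 in intact members led by *Tnni2*, and in callus members 0.333 under a 10% mitochondrial limit, 0.398 without members holding other-cell RNA and 0.395 without members of at least 10 *Malat1* UMIs. All of these lie below the other barcodes.

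*Tnni1* led in 0% of intact members at 20% marker UMIs, and in 0% of callus members at 10% and at 20% and 6.82% at 1000 genes. *Myh4* led in 100% (intact) and 97.0% (callus) at 20% marker UMIs, and in 80.0% of callus members with at least 5 and 80.0% with at least 20 heavy chain UMIs. Genes at least 2-fold higher in callus numbered 218 at 2%, 38 at 10% and 23 at 20% marker UMIs, and 212, 19 and 2109 with at least 20, at least 200 or no minimum of UMIs. Those higher in intact numbered 10 at 20% marker UMIs, 23 at 1000 genes, 107, 9 and 1941 by the same minima, and 20 among members led by *Tnni2*. The log2 ratio of the slow list was -1.41 at 2%, -2.16 at 10% and -0.86 at 1000 genes, and turned to 0.68 at 20% and 0.42 among members led by *Tnni2*, where the slow barcodes are left out. *Tnni1* turned to 0.18 and 3.52 there, with the added 0.5 UMI setting the value. The log2 ratio of *Sln* lay between 2.89 and 5.72, apart from 7.88 at 20% marker UMIs, where no intact UMI was left and the added 0.5 UMI set it, and that of *Ttn* between 0.96 and 1.17 over the alternatives. Among ratios under 2-fold, the mitochondrial genome sum turned to -0.67 at 20% and -0.02 at 200 genes, the fast list to -0.11 at 2%, -0.04 at 1000 genes and -0.04 among members led by *Tnni2*, and *Cryab* to 0.50 at 20% and 0.26 among the last. Over all values of single lists and genes other than the slow list's ratio and the mitochondrial shares, those just given included, 253 were within their spread and 126 moved, and among those at least 2-fold apart the 2 of *Tnni1* turned. 4 alternatives (classing by troponin I, the sets led by *Tnni2* and without *Malat1*, and the highest barcode of a list left out) were chosen after seeing the data. Depth limits genes under 50 UMIs and classes of few barcodes.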
